A study of Mus musculus with 9 samples.

Results

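Syntaxins, VAMPs and synaptotagmins are the core proteins of vesicle fusion, and their transcripts were read in a mouse NIH3T3 fibroblast line on 9 one-colour arrays. The genes were taken by name, as every symbol that begins with Stx, Vamp or Syt followed by a number and at most 1 letter. Of 22180 genes with a probe set that names 1 gene, 38 matched, namely 14 syntaxins, 7 VAMPs and 17 synaptotagmins. Each gene was read through 1 probe set, the brightest by its mean across the arrays, and Syt4 was the 1 member with more than 1 such probe set. The cells carried hMLKL1-181-2Fv, a stretch of human MLKL joined to Fv domains, and all 3 groups shared this fusion. MLKL is the effector of necroptosis that damages the plasma membrane, and B/B dimerizes proteins through their Fv domains. Annexin V binds phosphatidylserine exposed on the outer membrane leaflet. The 3 control arrays held cells with control treatment, the 3 arrays called B/B 1 h held annexin V-positive cells sorted after 1 h with 50 nM B/B, and the 3 washout arrays held such sorted cells after 6 h of washout. The series design gives the washout as 3000 nM and names no compound. Nothing in the labels tells if the control cells were sorted too, or at what time they were harvested, so that effects of B/B, of sorting and of time in culture cannot be told apart. The labels also do not say whether the arrays of a group were separate cultures or whether the line is 1 clone, and p-values measure the spread between these samples, which may be technical.

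Vesicles fuse with their target when SNARE proteins on both membranes zip into a bundle of helices. Syntaxins sit mainly on the target membrane and supply Q-type helices, VAMPs sit on the vesicle and supply the R-type helix, and each pair of compartments uses its own set. Synaptotagmins are membrane-anchored proteins with a pair of C2 domains, and several of them bind calcium and trigger fusion when calcium rises. In fibroblasts these proteins serve secretion, endosome traffic and the lysosome exocytosis that patches torn plasma membrane, while many synaptotagmins are best known from neurons and endocrine cells.

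Values are log2 probe set values, with base 2 inferred from their range, and array medians lay between 4.60 and 4.68. No detection calls were used here, and no gene is said to be expressed more than another, because probe sets differ in brightness. Mean level served to pick probe sets and named members, to mark the lowest 30% of genes and to describe marker lists and families by group. Replicate numbers only name arrays, in accession order, and pair none. A gene is called where its Benjamini-Hochberg adjusted p over all 22180 genes was under 0.05 in limma, fitted over all 9 arrays with 3 per group. The fibroblast label was checked against 10 marker genes, whose mean level was 10.41 to 10.43 in control arrays and 10.42 to 10.44 in B/B 1 h arrays. It was 9.97 to 9.99 after washout, where 1 of the 10 was higher and 7 were lower (80%), beside 26.2% of all genes. The differences of the 10 from control after washout had a median of -0.50 and ran from -1.36, for Pdgfrb, to 0.68, for Pdgfra. Mean levels of 10 neuron markers were 4.76 to 4.77 in control, 4.83 to 4.93 in B/B 1 h and 4.79 to 4.89 in washout arrays. B/B 1 h replicate 1 had the lowest array weight, 0.563. Arrays of a group correlated across genes, which are not independent replicates, at 0.998 to 0.999, and arrays from 2 groups at 0.990 to 0.998.

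Cells taken after 1 h with B/B were compared with control to ask which of these transcripts differed soon after dimerization of MLKL. Vamp2, the R-SNARE of synaptic and recycling vesicles, was the 1 member called, and it fell by 0.61 ± 0.053 (log2, SE). Vamp2 read 8.22, 8.23 and 8.27 in control, 7.62, 7.69 and 7.55 in B/B 1 h and 7.83, 7.70 and 7.82 in washout arrays. Each control array lay above all 6 others, and the mean at 1 h was 0.653 of control on the linear scale (limma adjusted p 2.8e-04). The call was made under all 20 alternatives tried, with a difference between -0.65 and -0.56. Vamp3, the close relative of Vamp2 that serves recycling endosomes in most cells, read 9.59, 9.52 and 9.68 in control, 9.53, 9.48 and 9.50 at 1 h and 9.44, 9.49 and 9.51 after washout. Its difference at 1 h was -0.09, with a 95% interval from -0.21 to 0.02.

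So 0 members were higher and 1 was lower of 38 at 1 h (2.63%), beside 2.89% of all genes, of which 1.01% were higher and 1.88% lower. The 642 genes behind this share became 376, 372 and 323 when control replicate 1, 2 or 3 was left out. Leaving out replicate 1, 2 or 3 of B/B 1 h gave 369, 422 and 691. At an unadjusted p under 0.05 in limma, 4 members were higher and 3 lower (18.4%), beside 18.5% of all genes. The groups did not overlap in 8 members, beside 21.3% of all genes. The median difference of the 38 was 0.02, and that of all genes rounded to 0.00. For each of the 37 members not called, the 95% interval stayed within 0.5 on the log2 scale in both directions, from -0.32 at the lowest to 0.48 at the highest. Stx12 and Stx7, both endosomal, stood at -0.17 and -0.16 without a call (adjusted p 0.109 and 0.155). Stx4a, the plasma membrane syntaxin of regulated secretion in cells other than neurons, stood at -0.15 (95% interval -0.31 to 0.01).

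**Figure D1:**
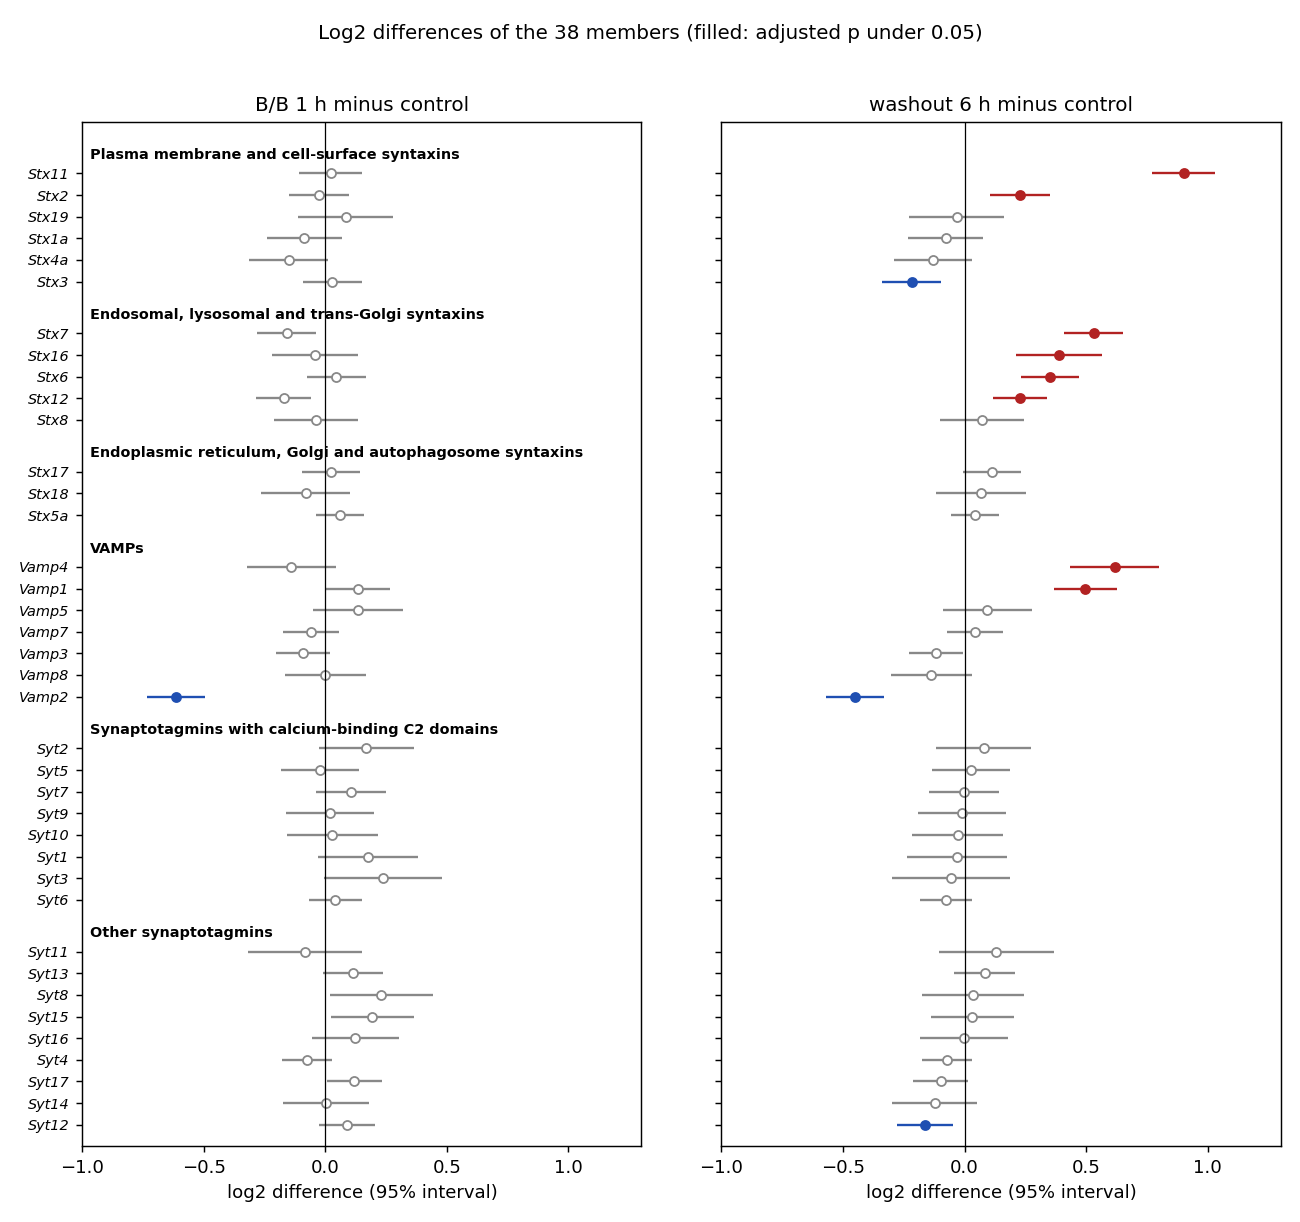
Log2 differences of all 38 members between B/B 1 h and control (left) and between washout and control (right), grouped by role, with 95% intervals from limma. Filled points passed the threshold (red higher, blue lower): Vamp2 at -0.61 is the 1 filled point on the left, and 8 higher and 3 lower points are filled on the right.

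After 6 h of washout, 8 members were higher and 3 lower than control, led by the syntaxin Stx11 at 1.87-fold. Endosomal and trans-Golgi syntaxins Stx7, Stx16, Stx6 and Stx12 and the VAMPs Vamp4 and Vamp1 were among the higher genes, while Vamp2, Stx3 and Syt12 were lower. The 11 called members are 28.9% of 38, beside 26.2% of all genes, a share near the background. The shares by direction over all genes were 14.5% higher and 11.7% lower. The median difference was 0.03 over the 38 and rounded to 0.00 over all genes. By family, 6 higher and 1 lower of 14 syntaxins, 2 higher and 1 lower of 7 VAMPs and 0 higher and 1 lower of 17 synaptotagmins passed, with medians of 0.09, 0.05 and -0.01. The groups did not overlap in 14 members, beside 38.0% of all genes. Fewer cells that carry a transcript and less of it per cell cannot be told apart in these bulk samples.

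Stx11 encodes a syntaxin without a transmembrane segment, known for the release of cytotoxic granules by lymphocytes. Of 7 leukocyte markers, 3 were higher and 0 lower at 1 h (42.9%, beside 2.89% of all genes), namely Cd14, Cd68 and Adgre1. After washout 1, Cd14, was higher and 2 were lower (42.9%, beside 26.2% of all genes). Low mean level, within the bottom 30% of genes, marked 5 of the 7, Adgre1 among them. Mean levels of the 7 were 4.85 to 4.88 in control, 4.97 to 5.06 at 1 h and 4.97 to 5.03 after washout. The differences of the 7 from control after washout had a median of -0.08 and ran from -0.30 to 1.47, the highest for Cd14. The part of these markers in the Stx11 values was not tested. It read 6.19, 6.22 and 6.16 in control, 6.30, 6.15 and 6.18 in B/B 1 h and 7.16, 6.99 and 7.12 in washout arrays. Control and B/B 1 h arrays overlapped, and all 3 washout arrays lay above them. The difference from control was 0.90 ± 0.058 (log2, SE; limma adjusted p 3.9e-06), and from B/B 1 h it was 0.88. Of the other plasma membrane syntaxins, Stx2, also called epimorphin, rose by 0.23 ± 0.055 (log2, SE; adjusted p 0.0119). Stx2 read 8.07, 8.14 and 8.21 in control, 8.19, 8.11 and 8.04 at 1 h and 8.40, 8.32 and 8.38 after washout, and the washout arrays did not overlap with the rest. Stx3, a syntaxin of apical and granule membranes, moved the other way and fell by 0.22 ± 0.054 (log2, SE; adjusted p 0.0140). Its values were 8.34, 8.38 and 8.47 in control, 8.45, 8.36 and 8.47 at 1 h and 8.14, 8.26 and 8.16 after washout, where every array lay below the other 6. The Stx3 call was lost without control replicate 3 (-0.18, adjusted p 0.0547) or washout replicate 1 (-0.19, adjusted p 0.0551), within 0.00580 to 0.0551 over its alternatives. Stx4a, at -0.13 (95% interval -0.29 to 0.03), and the neuronal syntaxin Stx1a, at -0.08 (95% interval -0.23 to 0.08), did not pass. Stx19, at -0.03, was in the lowest 30% of genes by mean. Of the 6 measured syntaxins of the plasma membrane, 2 were higher and 1 lower, beside 14.5% higher and 11.7% lower of all genes. The median difference of the 6 was -0.06, and 2 of them lay above 0 (33.3%), beside 50.2% of all genes.

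Among the 5 syntaxins of endosomes, lysosomes and the trans-Golgi network, 4 rose and 0 fell after washout, with a median difference of 0.35, beside 14.5% higher and a median of 0.00 over all genes. This group of 5 was set with earlier results of these data known, and it lies within the 38, whose share of calls was near the background. Stx7, the Q-SNARE of late endosome fusion, had the highest value of them at 0.53 ± 0.054 (log2, SE; limma adjusted p 6.3e-05). It read 8.18, 8.15 and 8.25 in control, 7.99, 8.02 and 8.09 at 1 h and 8.80, 8.65 and 8.72 after washout, so the 1 h arrays were the lowest and the washout arrays the highest. Stx16, the trans-Golgi Q-SNARE that receives vesicles from endosomes, rose by 0.39 ± 0.078 (log2, SE; adjusted p 0.00439). Its arrays read 7.58, 7.70 and 7.80 in control, 7.59, 7.56 and 7.80 at 1 h and 8.0, 8.15 and 8.08 after washout. Stx6, a partner of Stx16, rose by 0.35 ± 0.054 (log2, SE; adjusted p 8.2e-04), from 8.87, 9.0 and 9.04 in control, with 8.96, 9.06 and 9.03 at 1 h, to 9.30, 9.32 and 9.35 after washout. Stx12, also called syntaxin 13 and found on recycling endosomes, rose by 0.23 ± 0.050 (log2, SE; adjusted p 0.00717). It read 5.82, 5.86 and 5.90 in control, 5.77, 5.61 and 5.68 at 1 h and 6.05, 6.08 and 6.13 after washout. For each of these 4 genes the washout arrays lay above all control and all B/B 1 h arrays. Stx8, a late endosome partner of Stx7, stood at 0.07 (95% interval -0.10 to 0.25).

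The 3 syntaxins of the endoplasmic reticulum, the Golgi and the autophagosome did not pass. Stx5a, the Q-SNARE of transport from the reticulum to the Golgi, read 9.16, 9.16 and 9.10 in control, 9.16, 9.25 and 9.20 at 1 h and 9.22, 9.20 and 9.15 after washout. These groups overlapped, and the difference between washout and control was 0.04 (95% interval -0.05 to 0.14). Stx18, which acts in the return path to the reticulum, stood at 0.07 (95% interval -0.12 to 0.25). Stx17, which fuses autophagosomes with lysosomes, stood at 0.11 (95% interval -0.01 to 0.23). Without washout replicate 3 the Stx17 difference was 0.16 and passed (limma adjusted p 0.0446).

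**Figure D2:**
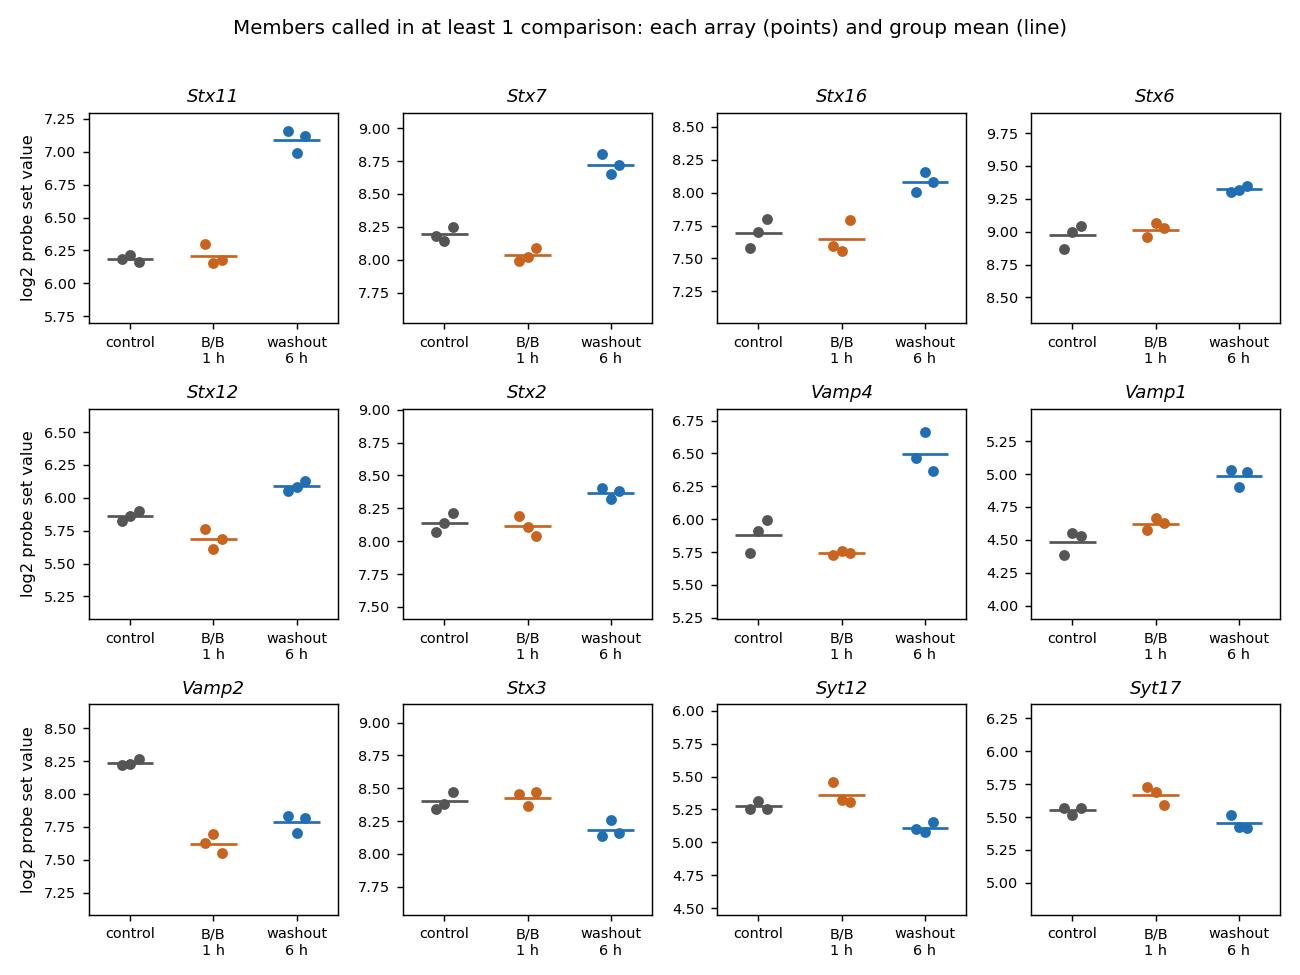
Log2 probe set values of the 12 members called in at least 1 comparison, with 1 point per array and a line at each group's mean (3 arrays per group, every panel with the same log2 span). The rise from control to washout is steepest in Stx11, Vamp4 and Stx7, at 0.90, 0.62 and 0.53, and Vamp2 is lower in the B/B 1 h and washout arrays than in control.

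Of 7 VAMPs, Vamp4 and Vamp1 rose and Vamp2 stayed below control after washout (42.9%), beside 26.2% of all genes. Vamp4, the R-SNARE of the trans-Golgi network, read 5.74, 5.91 and 5.99 in control, 5.73, 5.76 and 5.74 at 1 h and 6.47, 6.66 and 6.37 after washout. All washout arrays were above the other 6, and the difference from control was 0.62 ± 0.082 (log2, SE; limma adjusted p 3.5e-04), or 1.53-fold. Vamp1, the R-SNARE of spinal and neuromuscular synapses, read 4.38, 4.55 and 4.53 in control, 4.57, 4.66 and 4.63 at 1 h and 5.03, 4.91 and 5.02 after washout. It rose by 0.50 ± 0.058 (log2, SE; adjusted p 1.6e-04), and the 3 groups did not overlap. A further probe set that names both Vamp1 and E130112N10Rik was fitted with the other probe sets of several symbols and stood at 0.09 after washout (adjusted p 0.462), so the probe sets that name Vamp1 differed. Vamp2 was 0.45 ± 0.053 below control (log2, SE; adjusted p 1.6e-04). From 1 h to washout Vamp2 stood at 0.16 (adjusted p 0.0460), and that call was lost under 12 of 20 alternatives, with differences from 0.08 to 0.20 and adjusted p from 0.0210 to 0.358. The lowest difference, 0.08, was with quantile normalization, while without a control array the difference stayed at 0.16. Without control replicates 1, 2 and 3 its adjusted p was 0.0625, 0.0656 and 0.0602. Leaving out replicate 1 or 3 of B/B 1 h gave 0.0925 and 0.139, and leaving out replicate 1 or 3 of washout gave 0.141 and 0.134.

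The other 4 VAMPs did not pass in any comparison in the fit of all 9 arrays as deposited. Vamp7, the R-SNARE of lysosome exocytosis, read 9.06, 9.01 and 9.16 in control, 9.02, 9.04 and 8.98 at 1 h and 9.14, 9.17 and 9.06 after washout. Control overlapped with both other groups. The washout arrays all lay above the 1 h arrays, without a call (0.11, limma adjusted p 0.167). For Vamp7 the difference between washout and control was 0.05 (95% interval -0.07 to 0.16). Vamp8, the endosome and granule R-SNARE, stood at -0.14 (95% interval -0.30 to 0.03), and Vamp3 at -0.12 (95% interval -0.23 to -0.01; adjusted p 0.125). Between 1 h and washout Vamp8 stood at -0.14, and with quantile normalization at -0.20, where it was called (limma adjusted p 0.0440). Vamp5, best known from muscle, stood at 0.09 (95% interval -0.09 to 0.28).

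Of 17 synaptotagmins, 1 was called after washout against control (5.88%) and 2 between B/B 1 h and washout (11.8%), all lower. The shares over all genes were 26.2% and 28.6%. Syt12, which lacks the calcium-binding residues of the classical members, read 5.26, 5.31 and 5.26 in control, 5.46, 5.32 and 5.31 at 1 h and 5.10, 5.08 and 5.15 after washout, below all other arrays. Against control it fell by 0.16 ± 0.051 (log2, SE; limma adjusted p 0.0409), and against 1 h it fell by 0.25. The call against control was lost under 11 of 20 alternatives, with differences from -0.18 to -0.14 and adjusted p from 0.0167 to 0.126. Without control replicates 1, 2 and 3 its adjusted p was 0.0749, 0.126 and 0.0759, without B/B 1 h replicate 2 it was 0.0514, and without washout replicates 1, 2 and 3 it was 0.106, 0.124 and 0.0520. Syt17, a member without a transmembrane segment, read 5.57, 5.52 and 5.57 in control, 5.73, 5.69 and 5.59 at 1 h and 5.51, 5.43 and 5.41 after washout, the lowest group. It fell by 0.22 ± 0.050 between 1 h and washout (log2, SE; adjusted p 0.00813), and was at -0.10 against control (adjusted p 0.206).

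The 8 synaptotagmins with calcium-binding C2 domains had 0 higher and 0 lower calls in each of the 3 comparisons. Syt3, one of them, stood at -0.29 between 1 h and washout (adjusted p 0.0769), and its 95% interval, -0.53 to -0.05, was the 1 among uncalled members to pass 0.5. It was called there without control replicate 1 (limma adjusted p 0.0244) and with only the 2 groups compared (adjusted p 0.0336). Syt8, of the other synaptotagmins, was called there without washout replicate 1 (-0.30, adjusted p 0.0229). Syt7, the calcium sensor of lysosome exocytosis, was picked for this role after its values were seen, and it read 4.75, 4.65 and 4.75 in control, 4.76, 4.75 and 4.96 at 1 h and 4.66, 4.75 and 4.73 after washout. Its intervals ran from -0.04 to 0.25 at 1 h and from -0.15 to 0.14 after washout. Syt1, the trigger of fast transmitter release, stood at 0.18 at 1 h (95% interval -0.03 to 0.38) and at -0.03 after washout. Syt2, a fast sensor like Syt1, read 5.45, 5.67 and 5.67 in control, 5.95, 5.67 and 5.68 at 1 h and 5.67, 5.73 and 5.63 after washout, and the groups overlapped. Syt13, an atypical member, read 5.56, 5.67 and 5.61 in control, 5.68, 5.83 and 5.67 at 1 h and 5.66, 5.73 and 5.69 after washout, with a 95% interval of -0.04 to 0.21 for washout against control.

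At 1 h, 14 of 17 synaptotagmins had a difference above 0 (82.4%), beside 51.6% of all genes, with a median of 0.11, and none was called. Their mean level was 4.67 to 4.73 in control, 4.76 to 4.80 at 1 h and 4.66 to 4.70 after washout. With quantile normalization 12 of 17 were above 0, and with array medians centred 13, both with a median of 0.09. Without B/B 1 h replicate 1 the median was 0.08, with 14 above 0. The 10 neuron markers had a like median at 1 h, 0.12, with 8 above 0 and 0 called, and their part in the synaptotagmin values was not tested. By mean level, 4 of the 17 synaptotagmins fell among the lowest 30% of all genes, namely Syt4, Syt5, Syt10 and Syt14. The 3 probe sets of Syt4 had means of 2.72, 3.40 and 3.70 and no call.

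From B/B 1 h to washout, 9 members were higher and 3 lower (31.6%), beside 28.6% of all genes, of which 16.6% were higher and 12.0% lower. The groups did not overlap in 16 members, beside 39.6% of all genes. Stx11 rose by 0.88, Vamp4 by 0.76, Stx7 by 0.69 and Stx16 by 0.43 (log2), with limma adjusted p of 3.8e-06, 8.4e-05, 1.1e-05 and 0.00219. Stx12 and Vamp1 rose by 0.40 and 0.36 and Stx6 and Stx2 by 0.31 and 0.25, and Stx3 fell by 0.25 (log2). The highest adjusted p of these 5 genes was 0.00670, for Stx3. This comparison shares the washout arrays with the one against control, so the calls of both are not independent. Both of its groups were sorted as annexin V-positive.

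Promoter sequence was set beside the members that rose together after washout. Windows of the 250 bases before a gene's start were taken from RefSeq sequence of build GRCm38.p6, which held 40 windows for 29 of the 38 members and 13 windows for 9 of the 12 called. The windows of Stx11, the member with the highest difference, and of Stx16, Stx6 and Vamp4, which act in 1 fusion step, are shown, with 1 of 2 windows each for Stx16 and Vamp4, given 5′ to 3′ on the gene's strand. Capitals mark matches, on either strand, to CACGTG, the E-box core, to TGACGTCA, the cAMP response element, to TGANTCA, an AP-1 motif, to TGACNNNGC, the core of the antioxidant element, or to a loose kB-like pattern, GGG and CC with any 5 bases between them, which can overlap itself. Whether the probe sets measure transcripts from these starts was not examined.
Stx11, chr10:12964260-12964509, minus strand: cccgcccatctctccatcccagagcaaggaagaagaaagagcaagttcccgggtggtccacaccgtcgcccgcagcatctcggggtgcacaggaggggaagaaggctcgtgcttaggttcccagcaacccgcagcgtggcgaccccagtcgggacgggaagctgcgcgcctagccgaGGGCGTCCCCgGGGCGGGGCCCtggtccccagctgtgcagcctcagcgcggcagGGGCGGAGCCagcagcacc
Stx16, chr2:174076052-174076301, plus strand: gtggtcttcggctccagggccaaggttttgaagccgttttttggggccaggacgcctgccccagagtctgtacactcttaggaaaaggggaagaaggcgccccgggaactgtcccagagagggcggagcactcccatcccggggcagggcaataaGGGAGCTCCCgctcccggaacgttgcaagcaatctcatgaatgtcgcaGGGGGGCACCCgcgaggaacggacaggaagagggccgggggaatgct
Stx6, chr1:155158453-155158702, plus strand: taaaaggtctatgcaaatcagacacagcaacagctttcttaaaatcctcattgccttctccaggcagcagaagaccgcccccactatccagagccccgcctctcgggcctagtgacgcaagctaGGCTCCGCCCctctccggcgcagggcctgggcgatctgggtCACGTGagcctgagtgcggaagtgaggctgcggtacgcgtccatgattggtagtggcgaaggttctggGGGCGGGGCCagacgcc
Vamp4, chr1:162570265-162570514, plus strand: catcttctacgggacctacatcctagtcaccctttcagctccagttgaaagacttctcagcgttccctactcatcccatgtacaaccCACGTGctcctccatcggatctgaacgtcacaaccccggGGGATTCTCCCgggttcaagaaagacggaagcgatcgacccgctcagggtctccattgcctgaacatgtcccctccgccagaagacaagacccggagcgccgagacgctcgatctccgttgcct

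The capitals in Stx6 include CACGTG beginning 85 bases before the start, and those in Vamp4 include it 163 bases before the start. CACGTG was in 2 of the 13 windows of called members (15.4%), in 5 of 40 member windows (12.5%) and in 6.02% of 32851 windows of all genes. The kB-like pattern was in 8 of the 13 (61.5%) and in 45.8% of all windows, so that most capitals above are of a pattern that is common everywhere. The Stx11 and Stx16 windows shown hold matches to this pattern and to none of the others. TGACNNNGC was in 2 of the 13 and in 10.2% of all, among them the Stx16 window not shown. The Vamp4 window not shown holds the kB-like pattern and no CACGTG. TGACGTCA and TGANTCA were in 0 of the 13, beside 1.55% and 6.75% of all windows, which says only that these letters are not there. The median CpG count was 14 per window in members and 6 in all genes. A match is a description of the sequence and not a bound site.

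Fusion partners were set side by side by textbook complexes, which were chosen after the values were seen. In fusion of endosome-derived vesicles with the trans-Golgi network, Stx16, Stx6 and Vamp4 rose after washout, and their partner Vti1a stood at 0.02 (95% interval -0.11 to 0.15). Among the Sec1/Munc18 genes, read further below, Vps45 was lower than control after washout, at -0.37 (limma adjusted p 0.0114). In late endosome fusion Stx7 rose, while Vti1b stood at -0.07, Stx8 at 0.07, Vamp8 at -0.14 and Vamp7 at 0.05, none of them called. Beside Stx11, the other proteins of granule release did not pass, with the Munc18 protein gene Stxbp2 at -0.09, the priming factor gene Unc13d at 0.12 and the fibroblast Q-SNARE gene Snap23 at 0.13 (adjusted p 0.0672). In autophagosome fusion the Stx17 partner Snap29 rose by 0.30 ± 0.048 (log2, SE; limma adjusted p 0.00112). None of Stx4a, Snap23, Vamp7 and Syt7, which serve lysosome exocytosis, was called at 1 h or after washout, and the widest of their intervals at 1 h was that of Stx4a.

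**Figure D3:**
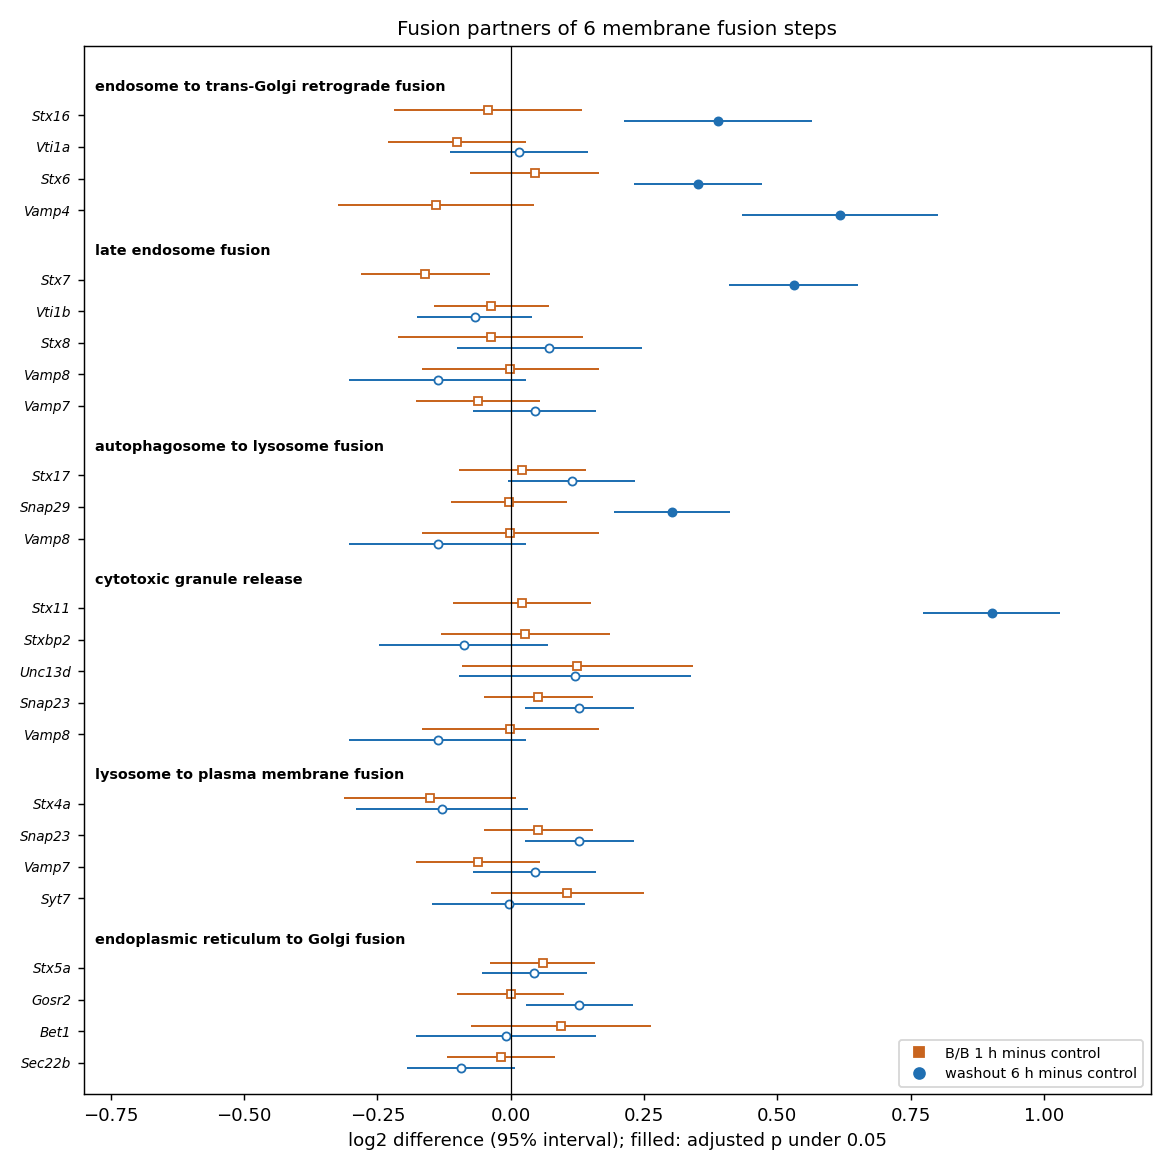
Log2 differences of members and their fusion partners with 95% intervals, for B/B 1 h against control (orange squares) and washout against control (blue circles), with filled symbols for adjusted p under 0.05. Stx16, Stx6 and Vamp4 are filled after washout and their partner Vti1a at 0.02 is open, as are all 4 genes of lysosome exocytosis.

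Other genes of the fusion machinery were read from 8 lists, of which 68 genes were measured. At 1 h 0 were higher and 4 lower, and after washout 13 were higher and 10 lower (33.8%), beside 2.89% and 26.2% of all genes. From 1 h to washout 22 were higher and 12 lower. From 1 h to washout this is 50% of the 68, beside 28.6% of all genes, and the medians were -0.01, 0.00 and 0.01 in these 3 comparisons. The 4 lower at 1 h were Bet1l, a Golgi SNARE, at -0.46, the exocyst genes Exoc8 and Exoc5 at -0.28 and -0.25, and Vps18, a subunit of the HOPS tether, at -0.28 (limma adjusted p 0.0250 to 0.0456). With probe sets averaged Vps18 stood at -0.02 at 1 h. Leaving out control replicate 1, 2 or 3 turned the count of 4 into 2, 0 and 1. For B/B 1 h replicates 1, 2 and 3 the counts were 0, 1 and 0, and for washout replicate 3 the count was 1.

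After washout the SNAP-25 family had 2 higher and 1 lower of 4. The share over all genes, for this list and those that follow, was 14.5% higher and 11.7% lower than control. Snap25, the neuronal Q-SNARE, rose by 0.64 ± 0.089 (log2, SE; limma adjusted p 4.6e-04), from 5.09, 5.25 and 5.07 in control to 5.98, 5.67 and 5.69. Snap25 was also the 1 higher of 10 neuron markers, of which Gap43, at -0.31, was the 1 lower. Snap47, a broadly expressed relative, fell by 0.38. The 12 other SNAREs had 0 higher and 0 lower after washout. From 1 h to washout they had 5 higher and 1 lower (50%), beside 28.6% of all genes, with Bet1l at 0.35 and Ykt6 at 0.32. The Bet1l call there was lost without washout replicate 3 (0.31, limma adjusted p 0.0521) and at a threshold of 0.01. The call of Sec22a, another of the 5, was lost under several alternatives. Sec1/Munc18 and syntaxin-binding genes had 2 higher and 3 lower of 11 against control, with the tomosyn gene Stxbp5 at 0.40, Scfd2 at -0.57 and Vps45 at -0.37. From 1 h to washout Vps45 stood at -0.27, a call lost under some alternatives. Of 4 genes that take SNARE complexes apart, Napb rose by 0.44 and Napa fell by 0.25 against control. From 1 h to washout 3 of them were higher and 1 lower, and the calls of Napa and Napg there were lost under some alternatives. Complexins, Munc13 and priming factors had 0 higher and 1 lower of 13 against control, with Cplx2 at -0.36.

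Extended synaptotagmins and synaptotagmin-like genes had 1 higher and 1 lower of 8 after washout. Here too the counts stand beside 14.5% higher and 11.7% lower of all genes. Esyt1, a tether between endoplasmic reticulum and plasma membrane, rose by 0.56 ± 0.051 (log2, SE; limma adjusted p 3.2e-05), and Esyt2 was at -0.17 (adjusted p 0.0175). Esyt2 was not called without control replicate 3 (adjusted p 0.0638) or washout replicate 3 (adjusted p 0.0635), nor with quantile normalization (-0.13, adjusted p 0.0513) or at a threshold of 0.01. The exocyst, which tethers vesicles to the plasma membrane, had 4 higher and 2 lower of 9, with Exoc4 at -1.01 and Exoc6b and Exoc1 at 0.34 and 0.32. Exoc4 read 9.0, 9.02 and 9.08 in control and 7.97, 8.17 and 7.94 after washout, with no overlap. HOPS and CORVET genes, which tether membranes ahead of the endosomal syntaxins, had 3 higher and 1 lower of 7, with Vps39 at 0.90, Vps18 at 0.47 and Vps41 at -0.45.

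**Figure D4:**
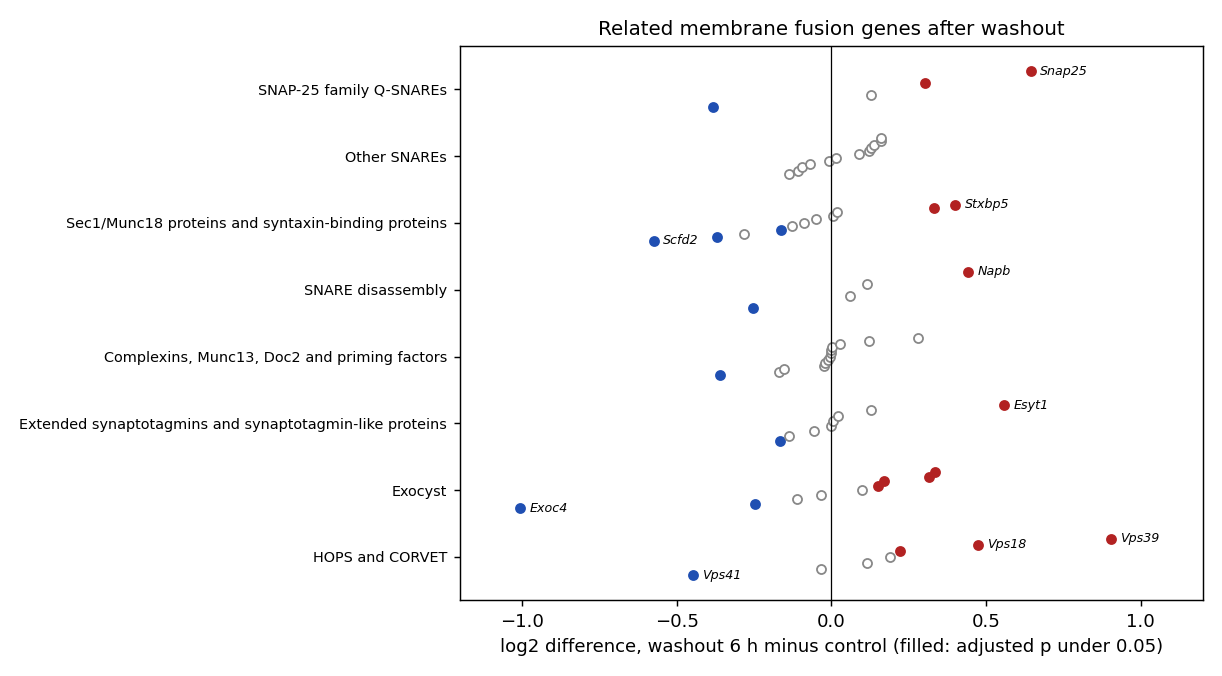
Log2 differences between washout and control for 68 related fusion genes in 8 lists, 1 point per gene, filled where adjusted p was under 0.05 (red higher, blue lower). Most lists hold filled points on both sides of 0, with Vps39 at 0.90 and Exoc4 at -1.01 farthest out.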

How the data were processed

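RNA from 9 samples, 3 per group, was extracted with Trizol and hybridised as biotin-labelled cRNA to Affymetrix arrays, per the labels' protocols. The deposited log2 values were made by the authors with Partek 6.6, per the submitters' processing notes. How they were summarised and normalized is not given in the sources used here. Their base, 2, was inferred from the range. Of 41345 probe sets, 23521 named 1 gene, 1814 several and 16010 none.

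Groups came from the treatment labels. In R 4.3.3, limma 3.58.1 fitted 3 group means over all 9 arrays (6 residual degrees of freedom, prior 3.38) with moderated tests, an F-test and Benjamini-Hochberg adjustment over 22180 genes. Intervals are unadjusted at 95%. The code was tested on simulated data. As alternatives, quantile normalization was applied, array medians were set equal, the lowest 30% of genes were dropped, probe sets were averaged or each tested, and the fit was run with a variance trend, a robust prior, no moderation, array weights (statmod 1.5.0), only the compared groups, a threshold of 0.01, or without each array in turn. Array values are given for members called in any comparison and the 2 members of each family with the highest means. Of each related list, up to 3 called genes per comparison are eligible to be named by size. Members and lists were chosen with earlier results of these data known.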

Additional observations from a re-analysis of the deposited data

How the results depend on the processing

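Under the 20 alternatives, the 1 h call of Vamp2 was made each time, 8 of the 11 member calls after washout held each time (Stx11, Stx12, Stx16, Stx6, Stx7, Vamp1, Vamp2 and Vamp4), and 11 of 12 between 1 h and washout held. Stx2 against control was lost only at an adjusted p under 0.01. With 1 array left out, member counts ran from 1 to 1, 9 to 11 and 11 to 12 in the 3 comparisons and from 10 to 13 in the F-test, which called 12 of 38 members (29.5% of all genes). Counts of related genes ran from 0 to 4, 18 to 25 and 24 to 34. The related count of 4 at 1 h was 2 with quantile normalization or probe sets averaged, 1 without moderation or with only the 2 groups compared, 7 without the lowest 30% of genes and 0 at adjusted p under 0.01. There the count of 34 between 1 h and washout was 21. Over all genes, the 642 calls at 1 h were 952 without the lowest 30%, which adjusts over fewer genes, 1228 with a variance trend, 359 with only the 2 groups, 239 at adjusted p under 0.01 and 323 to 691 with 1 array left out. With quantile normalization the syntaxin median was 0.02 at 1 h, against -0.03, and 0.07 between 1 h and washout, against 0.13. These family medians were added after the data were seen. No paired analysis was possible because the labels carry no replicate numbers, and those used here only name arrays. Precision is limited by 3 arrays per group, and the 5 members in the lowest 30% of genes by mean have no detection call here.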
